A study of Mus musculus with 15 samples.

Results

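The early response of the mouse submandibular gland to radiation was read from 6 of the 15 RNA-seq libraries of the series: 3 glands collected at day 4 after 15 Gy (IR_4d) and 3 nontreated glands (NT). They are the libraries whose labels give those groups, and every gene of the deposited table was compared. All mice were male C57BL/6, aged 8 to 10 weeks, and the dose was aimed at the gland region. The labels name no injection for IR_4d mice. The other 9 libraries are irradiated glands taken at day 30 (IR_30d) and irradiated glands injected weekly from day 1 with iEVs and taken at day 4 or day 30 (IR_iEV_4d, IR_iEV_30d). The term iEV is not spelled out in the labels, but the series title speaks of vesicles from mesenchymal stem cells. The labels name no sham-irradiated group, give no collection day for NT, and do not say whether each library is its own mouse. Age at collection and irradiation therefore cannot be told apart where they differ. The p-values weigh a group difference only against the spread of libraries within groups, estimated from all 15 libraries. That spread may in part be technical and may not be a spread between mice.

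Ionizing radiation breaks DNA, and the kinases that sense the breaks stabilize the transcription factor p53. Stabilized p53 switches on genes for cell cycle arrest, cell death, DNA repair and its own inhibitor Mdm2, mostly by binding a pair of short motifs near their starts. The submandibular gland makes saliva in acini, modifies it in ducts and, in male mice, stores kallikreins and growth factors in granular ducts. It loses secretion after radiotherapy of the head and neck, and it also houses resident macrophages, lymphocytes and plasma cells.

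The 6 libraries held between 29082798 and 52201098 counts, and the 10 most abundant genes took 39.9% to 49.0% of them. Levels are CPM, read counts scaled to a common effective library size. The labelled tissue was present in all 6: 26 granular duct products summed to 161543 to 177342 CPM in NT and to 156102 to 188488 CPM in IR_4d, and the acinar list to 92770 to 126130 and 86705 to 104054 CPM. Genes of tissue beside the gland varied between libraries. The 4 sublingual genes (Dcpp1, Dcpp2, Dcpp3 and the mucin Muc19) had mean log2 CPM values of 7.48, -1.55 and -1.97 in NT and 10.7, 9.27 and 2.37 in IR_4d. The parotid list summed to 87.0, 24.7 and 19.8 CPM in NT and to 7036, 221.8 and 637 CPM in IR_4d, so its groups did not overlap. Fat markers were highest in IR_4d replicate 3 (mean log2 CPM of 3.36, against -1.04 to 0.91 in the other 5). No member of these 3 lists passed edgeR's test (0 sublingual, 4 parotid and 2 fat genes at unadjusted p under 0.05), while DESeq2 called 4 parotid genes higher. Results are given also without the 6 of 15 libraries with a sublingual mean over 5 (the sublingual-rich libraries). This leaves 2 NT and 1 IR_4d library. Another fit had the sublingual and fat levels as covariates. No alternative fit took the parotid level into account. The IR_4d library left is replicate 3, with a parotid sum of 637 CPM, against 24.7 and 19.8 CPM in the NT libraries left. Whether parotid tissue bears on the calls was not tested.

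**Figure D1:**
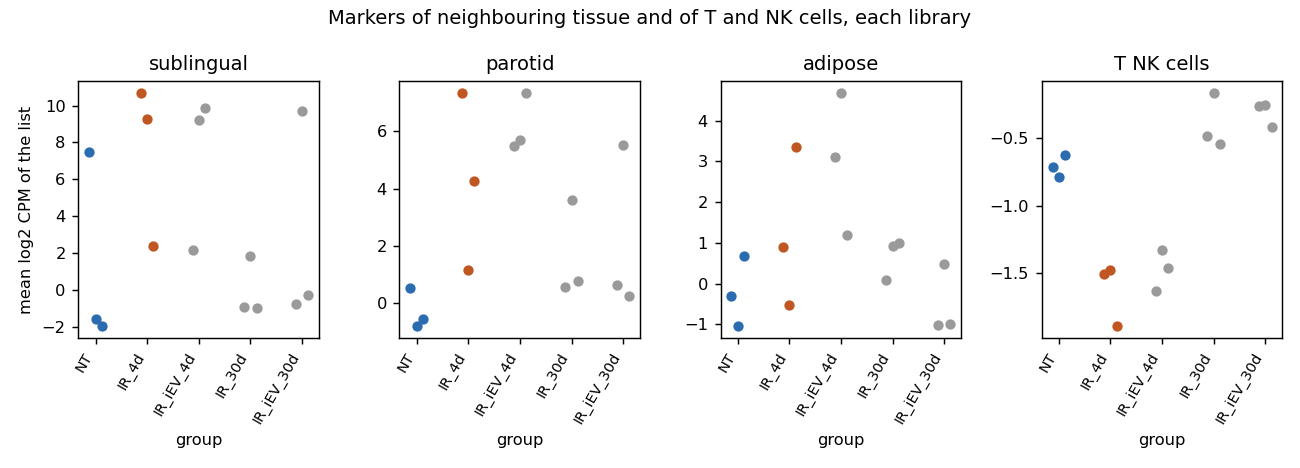
Mean log2 CPM of 3 lists of neighbouring-tissue markers and of the T and NK cell list in each library (points), by group (horizontal axis); NT is blue, IR_4d orange and the other groups grey. NT replicate 1 and IR_4d replicates 1 and 2 stand high for sublingual genes, and the 3 IR_4d libraries lie below the 3 NT libraries for T and NK cells.

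At day 4, 134 genes were higher and 90 lower than in nontreated glands among 16042 tested (edgeR's quasi-likelihood test, Benjamini-Hochberg adjusted p under 0.05), or 1.40% of genes in either direction, 0.835% higher and 0.561% lower. The genes that rose had a median log2 change of 1.04 and those that fell a median of -0.92, against -0.003 over all genes tested. Rises of 2-fold or more (log2 of 1) numbered 69 and falls of that size 37. In all 224 the 3 values of one group lay clear of the other 3. Over all tested genes, 9.06% had every IR_4d value above every NT value and 9.31% had every one below. Of the genes that rose, 69 passed with each of the 6 libraries left out in turn, and of those that fell 16 did. Over all 16 alternative fits, 35 of the rises and 6 of the falls passed every time, where a gene under a stricter filter on low levels counts as not passed. With the sublingual and fat covariates 62 higher and 23 lower genes passed, and without the sublingual-rich libraries 97 and 32.

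**Figure D2:**
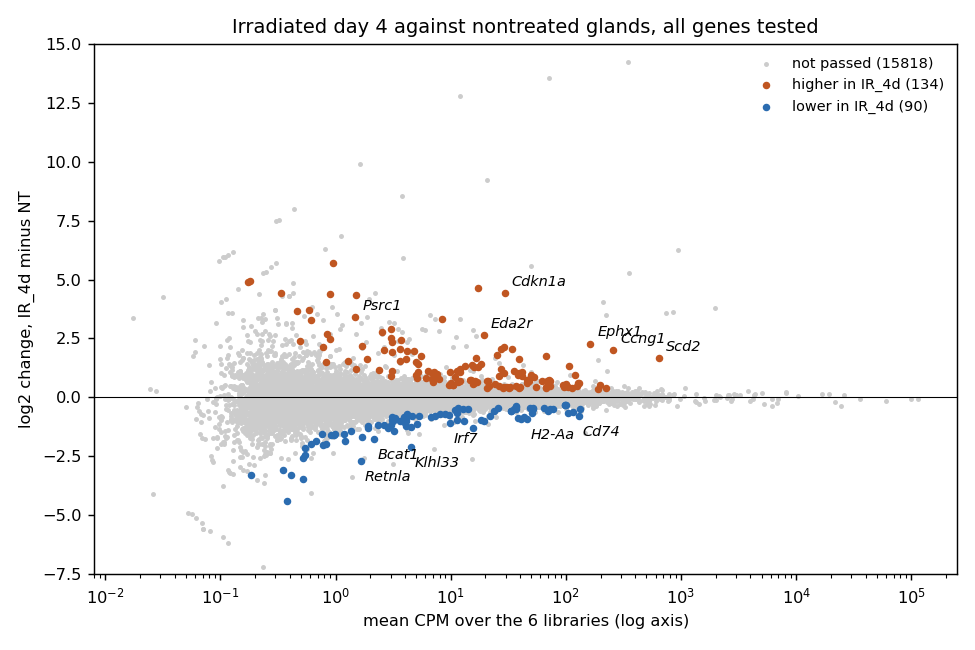
Log2 change (vertical axis, IR_4d minus NT) against mean CPM over the 6 libraries (log axis) for the 16042 genes tested, with genes past the threshold in color. Higher genes (134) include the p53 targets Cdkn1a, Ephx1 and Ccng1, lower genes (90) include Cd74 and H2-Aa, and the grey points far above 0 at high CPM include the parotid gene Amy1, which did not pass.

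The gene lists and their members were chosen with earlier results of these data known, so counts of members are a description and no test. Among the gene lists, reported targets of p53 held the most rises. In 4 p53 target lists holding 88 genes, 32 of the 87 tested were higher and none lower, with a median log2 change of 0.45, against 0.835% higher and a median of -0.003 over all genes. These 32 make up 23.9% of all genes that rose. In 29 of them the call stood without any single library and in 17 over all 16 alternative fits. Of the p53 genes, 28 passed with the covariates, and 24 passed without the sublingual-rich libraries. The transcript of p53 itself did not pass. Trp53 stood at 17.2, 20.2 and 13.6 CPM in NT and 14.3, 16.3 and 15.5 CPM in IR_4d, overlapping ranges (log2 change -0.15 ± 0.14, adjusted p = 0.768).

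Of the 24 genes for cell cycle arrest and feedback on p53, 12 rose and none fell (median log2 change 0.61, with 0.835% higher over all genes). With the covariates 10 members of this list were called higher. Cdkn1a, which encodes the cyclin-dependent kinase inhibitor p21, stood at 2.92, 1.76 and 3.03 CPM in NT and at 44.1, 64.1 and 60.3 CPM in IR_4d (log2 change 4.43 ± 0.26, adjusted p = 2.22e-07). All 3 irradiated glands were far above all 3 nontreated ones, and replicate 1 was the lowest of them. Mdm2, the ubiquitin ligase that degrades p53, went from 30.1, 27.7 and 29.1 CPM in NT to 53.1, 51.4 and 57.5 CPM in IR_4d (log2 change 0.90 ± 0.11, adjusted p = 7.03e-05), a smaller change with little spread in either group. Ccng1, cyclin G1, measured 95.7, 102 and 105 CPM in NT and 415, 399 and 416 CPM in IR_4d (log2 change 2.02 ± 0.15). Zmat3, an RNA-binding p53 target, measured 23.5, 16.8 and 17.6 CPM in NT and 57.8, 56.5 and 62.4 CPM in IR_4d (log2 change 1.61 ± 0.11), and Sesn2, a stress-induced restrainer of mTORC1, 8.45, 7.01 and 6.97 CPM in NT and 19.7, 16.9 and 20.2 CPM in IR_4d (1.34 ± 0.12). For each of these genes the IR_4d values were close together and well clear of NT.

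Gtse1 and Psrc1, which encode microtubule-associated proteins, rose from low levels. Gtse1 measured 1.40, 0.723 and 0.887 CPM in NT and 4.79, 5.37 and 5.35 CPM in IR_4d (log2 change 2.36 ± 0.23, adjusted p = 6.72e-06), and Psrc1 measured 0.344, 0.346 and 0.111 CPM in NT and 2.42, 2.63 and 3.01 CPM in IR_4d (3.40 ± 0.31, adjusted p = 2.31e-06). The other 5 members that rose were Plk2, Ckap2, Tob1, Mdm4 and Trp53inp1, named here after their values were seen, with log2 changes from 0.54 to 1.41. Mdm4, a relative of Mdm2 that also restrains p53, did not pass when any single library was left out (highest adjusted p = 0.103). Trp53inp1, a stress-induced partner of p53, did not pass when any single library was left out (highest adjusted p = 0.175). The 12 members that did not pass include Btg2, Sesn1, Gadd45a and Ppm1d, with log2 changes of 0.68, -0.11, 0.38 and 0.07.

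Among 19 p53 targets with roles in cell death, 8 rose and none fell (median 0.49), against 0.835% higher over all genes. Bax, which permeabilizes the mitochondrial outer membrane, stood at 7.74, 9.15 and 8.76 CPM in NT and at 22.4, 20.2 and 23.5 CPM in IR_4d (log2 change 1.36 ± 0.11, adjusted p = 3.98e-07). Aen, a nuclease, went from 9.65, 11.5 and 10.9 CPM in NT to 45.4, 51.7 and 46.1 CPM in IR_4d (2.16 ± 0.09, adjusted p = 2.12e-10), with the smallest p of all genes. Both groups were tight and far apart. Tnfrsf10b, the death receptor for TRAIL, measured 2.49, 1.26 and 2.11 CPM in NT and 7.33, 7.34 and 8.18 CPM in IR_4d (1.95 ± 0.25), and Eda2r, a receptor for an ectodysplasin, 5.56, 4.401 and 6.12 CPM in NT and 37.4, 32.5 and 30.4 CPM in IR_4d (2.63 ± 0.15). Phlda3, an inhibitor of Akt, measured 11.0, 12.7 and 15.8 CPM in NT and 47.8, 59.0 and 57.4 CPM in IR_4d (2.05 ± 0.13). Ei24 had a small rise, from 87.0, 80.4 and 77.0 CPM in NT to 118, 125 and 119 CPM in IR_4d (0.57 ± 0.08), which did not pass without the sublingual-rich libraries (adjusted p = 0.0510). Bbc3 and Apaf1 also rose, with log2 changes of 1.04 and 0.85. Without the sublingual-rich libraries they did not pass either (adjusted p = 0.0728 and 0.0523), which leaves 5 of the 8, and with the covariates Apaf1 did not (adjusted p = 0.0637), which leaves 7. On the same list Fas (0.16), Perp (0.16) and Pmaip1 (-0.03) were not called.

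Of 23 repair and metabolism targets of p53 tested, 6 rose (0.835% over all genes) and none fell, with a median of 0.15. Ephx1, microsomal epoxide hydrolase, stood at 51.4, 58.8 and 55.4 CPM in NT and 273, 274 and 259 CPM in IR_4d (log2 change 2.28 ± 0.10, adjusted p = 2.53e-10). Mgmt, which removes alkyl groups from guanine, measured 0.974, 0.849 and 1.57 CPM in NT and 6.36, 6.70 and 5.52 CPM in IR_4d (2.42 ± 0.21), and the translesion polymerase gene Polk 6.73, 7.83 and 6.73 CPM in NT and 15.7, 15.3 and 15.9 CPM in IR_4d (1.14 ± 0.15). The groups did not overlap in either gene. Ddias, named for suppressing apoptosis after DNA damage, rose by 2.78 ± 0.36, the carnitine palmitoyltransferase gene Cpt1c by 1.93 ± 0.22 and the xylulose reductase gene Dcxr by 1.04 ± 0.14 on the log2 scale. Dcxr did not pass without the sublingual-rich libraries (adjusted p = 0.0560). The nucleotide excision repair genes Ddb2 and Xpc and the ribonucleotide reductase gene Rrm2b, known p53 targets, did not pass, with log2 changes of 0.06, -0.24 and 0.02.

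The remaining p53 targets had 6 of 21 members higher (0.835% over all genes) and a median of 0.59. With the covariates 5 members of this list were called higher. Gdf15, a secreted stress cytokine of the TGF-beta family, stood at 1.80, 1.04 and 1.20 CPM in NT and 35.8, 29.4 and 35.0 CPM in IR_4d (log2 change 4.64 ± 0.41, adjusted p = 7.03e-05). Inka2, an inhibitor of the kinase Pak4, measured 0.630, 1.07 and 0.462 CPM in NT and 5.09, 5.49 and 5.31 CPM in IR_4d (2.91 ± 0.26). The thiamine transporter gene Slc19a2 rose by 1.27 ± 0.12, the DNA damage reader Rnf169 by 1.02 ± 0.09 and the kinase gene Dyrk3 by 1.76 ± 0.14, none with overlapping groups. Trp53cor1, the noncoding RNA also called lincRNA-p21, measured 0.0573, 0.314 and 0 CPM in NT and 1.09, 1.36 and 0.839 CPM in IR_4d. It lies beside Cdkn1a, and the strand setting of the counting is not given, so reads of the 2 genes may not be fully separated. Its adjusted p was 0.0292, and it did not pass when NT replicate 1 or 3 or IR_4d replicate 1, 2 or 3 was left out (highest adjusted p = 0.111).

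**Figure D3:**
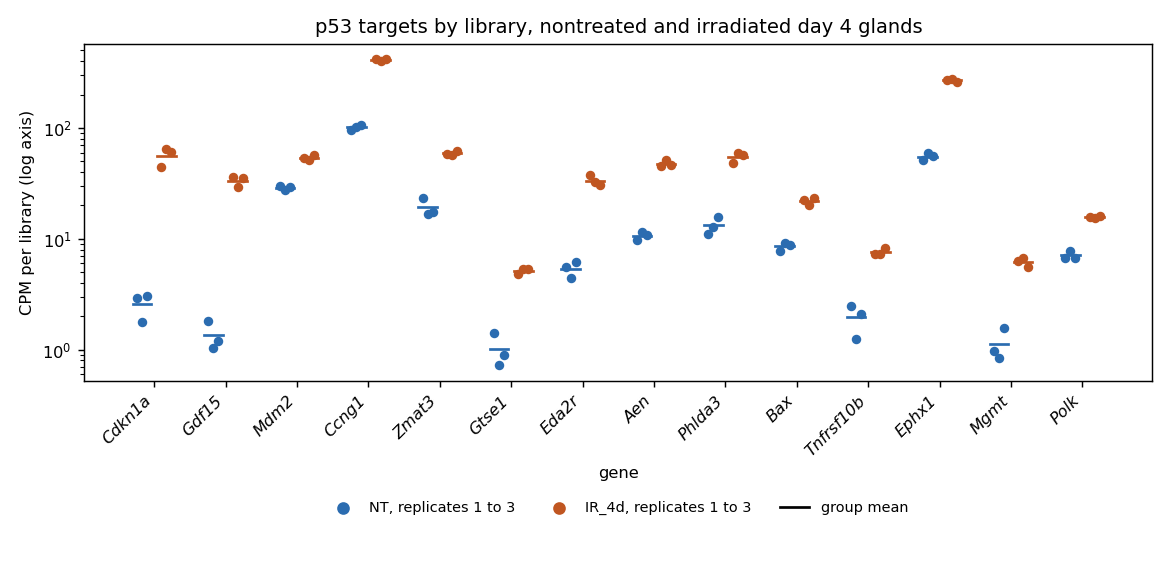
CPM on a log axis of 14 p53 targets in each NT (blue) and IR_4d (orange) library, with the group mean as a line. For every gene shown the 3 IR_4d points lie above the 3 NT points, and the gap is widest for Cdkn1a and Gdf15.

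Because the members that moved together are reported p53 targets, the promoters were searched for the p53 response element, which is 2 copies of a 10-base motif separated by up to 13 bases. Of the 134 genes that rose, 112 have a promoter in the RefSeq table (build GRCm38.p6, 250 bases before to 50 after each start). With at most 1 mismatch over both copies, 8 of these 112 (7.14%, 95% Wilson interval 3.66% to 13.5%) held a match, and 335 of 27025 genes in the table did (1.24%). Each copy reads alike on both strands, so both were covered. Of the genes that rose and held a match, Cdkn1a, Inka2, Gtse1, Ccng1, Bax and Polk are on the p53 lists. In those lists 9 of 73 genes tested (12.3%) held a match. The share among genes that rose therefore does not stand apart from the lists. A match is a description of letters and not a bound site. In 6 genes the match lay before the start. Their windows are shown, 5′ to 3′ on the strand of the gene, because they are where genes that rose carry the letters p53 is known to bind, and capitals mark the 2 motif copies.
Cdkn1a, chr17:29090866-29090977, plus strand, 0 mismatches: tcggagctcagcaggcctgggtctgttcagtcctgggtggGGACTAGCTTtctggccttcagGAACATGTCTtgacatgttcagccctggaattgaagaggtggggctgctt
Inka2, chr3:105705315-105705426, plus strand, 1 mismatch: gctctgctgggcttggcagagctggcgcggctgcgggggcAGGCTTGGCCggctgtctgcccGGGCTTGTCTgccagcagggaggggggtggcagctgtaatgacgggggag
Ccng1, chr11:40755422-40755521, minus strand, 1 mismatch: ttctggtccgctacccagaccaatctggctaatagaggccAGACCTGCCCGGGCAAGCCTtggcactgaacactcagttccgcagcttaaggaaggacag
Bax, chr7:45467050-45467148, minus strand, 1 mismatch: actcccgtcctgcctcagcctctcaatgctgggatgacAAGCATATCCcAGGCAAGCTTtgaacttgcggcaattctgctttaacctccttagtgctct
Polk, chr13:96519358-96519437, minus strand, 1 mismatch: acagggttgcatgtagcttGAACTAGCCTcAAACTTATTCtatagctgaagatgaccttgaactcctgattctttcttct
Rps27l, chr9:66946256-66946355, plus strand, 1 mismatch: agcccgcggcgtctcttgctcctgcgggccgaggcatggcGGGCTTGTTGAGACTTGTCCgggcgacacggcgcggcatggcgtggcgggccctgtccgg
In Cdkn1a the marked copies lie 12 bases apart, from 73 to 42 bases before 1 of its 2 listed starts. Only the pair with the fewest mismatches is marked. The 10 bases right after the second marked copy (tgacatgttc) match the motif with 1 mismatch, so an abutting pair is present there too. Cdkn1a was the only one of the 112 genes with an element free of mismatches (0.893%). In Ccng1 and Rps27l the copies abut, and in Bax and Polk a single base parts them. Rps27l, a ribosomal protein paralog outside the lists and named here after its values were seen, stood at 37.6, 34.8 and 36.4 CPM in NT and 57.0, 63.0 and 56.9 CPM in IR_4d (log2 change 0.70 ± 0.09, adjusted p = 0.000132). Allowing 2 mismatches gave 20 of 112 genes (17.9%) against 11.5% of the table.

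Several of the steadiest rises were in genes outside these lists. Exoc4, a subunit of the exocyst that tethers secretory vesicles, stood at 31.1, 29.5 and 32.3 CPM in NT and 104, 104 and 105 CPM in IR_4d (log2 change 1.75 ± 0.08, adjusted p = 2.12e-10). Dglucy, D-glutamate cyclase, measured 10.3, 9.53 and 12.1 CPM in NT and 44.1, 43.3 and 44.4 CPM in IR_4d (2.04 ± 0.10), and Map3k20, a kinase of the ribotoxic stress response, 12.3, 10.4 and 10.6 CPM in NT and 36.6, 40.2 and 39.9 CPM in IR_4d (1.81 ± 0.11). The irradiated glands differed little among themselves in all 3 genes. Tmem44 rose by 1.68 ± 0.11 and the translation factor gene Eif2d by 0.97 ± 0.07, both in every alternative fit. Fgfbp1, which releases fibroblast growth factors from the matrix, went from 2.06, 1.45 and 0.758 CPM in NT to 6.77, 4.89 and 5.94 CPM in IR_4d (2.07 ± 0.29), and the dynein light chain gene Dynlt2a1 from 0.888, 0.786 and 1.04 CPM in NT to 4.88, 5.77 and 4.96 CPM in IR_4d (2.51 ± 0.26). Mybl1, a Myb family transcription factor, rose by 1.99 ± 0.37 but did not pass when NT replicate 2 or 3 was left out (highest adjusted p = 0.0625).

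Outside the p53 lists, 2.94% of cell death, 1.96% of repair, 1.92% of proliferation and 9.09% of senescence genes tested were called. Over all genes tested 1.40% were. In a list of 34 BCL2 family members, caspases and related regulators, none rose and 1 fell (median 0.02). That gene was Bmf, a BH3-only killer protein, at 15.6, 15.3 and 14.0 CPM in NT and 7.78, 7.79 and 7.45 CPM in IR_4d (log2 change -0.97 ± 0.13, adjusted p = 0.000424, and 0.0706 without the sublingual-rich libraries). Among 51 core DNA repair genes 1 rose (median 0.01): the mismatch repair gene Msh6, from 17.9, 18.6 and 16.99 CPM in NT to 25.1, 23.5 and 22.6 CPM in IR_4d (0.41 ± 0.09), which did not pass when NT replicate 3 or IR_4d replicate 1 or 2 was left out (highest adjusted p = 0.100). Of 52 proliferation genes 1 rose and none fell (median -0.005), and the list's median turned with the setting. It was 0.55 without the sublingual-rich libraries (45 positive), 0.19 without NT replicate 1, -0.24 without IR_4d replicate 3 and -0.32 with the covariates (39 negative). The 1 gene was Ccnd1, cyclin D1, at 112, 103 and 87.9 CPM in NT and 145, 165 and 151 CPM in IR_4d (0.60 ± 0.13), and it did not pass when NT replicate 2 or 3 or IR_4d replicate 1, 2 or 3 was left out (highest adjusted p = 0.157). The cycling marker Mki67, added after its values were seen, stood at 17.99, 9.87 and 9.41 CPM in NT and 10.1, 8.91 and 18.3 CPM in IR_4d, with overlapping groups. The senescence list of 22 had 1 rise, the protease inhibitor gene Serpine2 (0.99 ± 0.16), which with the covariates had an adjusted p of 0.0516. Its 1 fall was the chromatin protein gene Hmgb2 (-0.53 ± 0.12), which did not pass when any single library was left out (highest adjusted p = 0.174).

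Among the gene lists, those of immune genes held the most falls. Bulk RNA cannot tell fewer cells of a type from less RNA per cell. In the antigen presentation list 6 of 24 tested members fell and none rose (against 0.561% lower over all genes), with a median log2 change of -0.33. All 6 belong to the class II route that displays peptides to helper T cells. H2-Aa, a class II chain, stood at 50.2, 62.4 and 68.1 CPM in NT and 31.5, 32.8 and 31.6 CPM in IR_4d (log2 change -0.91 ± 0.11, adjusted p = 0.000132). H2-Ab1 measured 46.5, 58.3 and 62.3 CPM in NT and 31.5, 31.9 and 29.4 CPM in IR_4d (-0.85 ± 0.11), and H2-Eb1 48.9, 55.0 and 54.5 CPM in NT and 26.4, 31.9 and 26.3 CPM in IR_4d (-0.91 ± 0.10). The invariant chain gene Cd74 measured 147, 166 and 177 CPM in NT and 93.2, 99.4 and 91.1 CPM in IR_4d (-0.79 ± 0.11). No group overlapped in these 4 genes, and all 4 passed in every alternative fit. Ciita, the class II transactivator, fell from 3.09, 2.80 and 3.86 CPM in NT to 1.33, 1.87 and 1.08 CPM in IR_4d (-1.19 ± 0.24) but did not pass when NT replicate 3 or IR_4d replicate 1 or 3 was left out (highest adjusted p = 0.102). H2-DMb1, a peptide exchange factor, changed by -0.79 ± 0.17 and did not pass when NT replicate 2 or 3 or IR_4d replicate 1 or 2 was left out (highest adjusted p = 0.147). With the covariates 4 members fell, without NT replicate 3 or IR_4d replicate 1 likewise 4.

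Nearly all interferon-stimulated genes had a negative log2 change. Of 54 tested, 7 fell and none rose (0.561% lower over all genes), and the median was -0.39. A negative log2 change was found in 52, against 8109 of 16042 genes tested. All IR_4d values lay under all NT values in 21 (9.31% over all genes). Irf7, the transcription factor that amplifies interferon signals, stood at 9.94, 12.9 and 16.9 CPM in NT and 6.92, 6.49 and 5.49 CPM in IR_4d (log2 change -1.07 ± 0.19, adjusted p = 0.00878), with NT replicate 3 the highest. It did not pass when IR_4d replicate 3 was left out (adjusted p = 0.0583), nor with the covariates (adjusted p = 0.167). Cmpk2, a mitochondrial nucleotide kinase, measured 4.58, 3.11 and 4.59 CPM in NT and 1.80, 2.14 and 1.01 CPM in IR_4d (-1.30 ± 0.25), and did not pass when NT replicate 3 was left out (adjusted p = 0.0539). Rtp4 changed by -1.16 ± 0.21 and did not pass when NT replicate 3 or IR_4d replicate 1 or 3 was left out (highest adjusted p = 0.0585). Rsad2, the antiviral protein viperin, changed by -1.13 ± 0.23 and did not pass when NT replicate 3 or IR_4d replicate 1, 2 or 3 was left out (highest adjusted p = 0.0738). Ifit1, Ifit3 and Oasl1 also fell, with log2 changes of -0.99 ± 0.22, -0.99 ± 0.21 and -1.45 ± 0.32. Ifit1 did not pass when NT replicate 3 or IR_4d replicate 1 or 3 was left out (highest adjusted p = 0.174), Ifit3 when NT replicate 2 or 3 or IR_4d replicate 1, 2 or 3 was left out (highest adjusted p = 0.111) and Oasl1 when NT replicate 2 or 3 or IR_4d replicate 1, 2 or 3 was left out (highest adjusted p = 0.177). The 7 calls numbered 11 when NT replicate 1 was left out, 1 when NT replicate 3 was, 2 for IR_4d replicate 1 and 1 for IR_4d replicate 3. They numbered 4 without the sublingual-rich libraries. With the covariates edgeR called 0 of them, 18 had an unadjusted p under 0.05, and the list's median stayed negative.

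Among 37 tested macrophage and monocyte markers 4 fell (against 0.561% lower over all genes), none rose, and the median was -0.29. The log2 change was negative in 28 and positive in 9, with the largest at 1.40. Over all genes tested, 8109 of 16042 were negative. Csf1r, the receptor for the macrophage growth factor, stood at 40.8, 36.9 and 42.0 CPM in NT and 25.3, 27.2 and 28.4 CPM in IR_4d (log2 change -0.57 ± 0.11, adjusted p = 0.00891), and did not pass when NT replicate 3 or IR_4d replicate 1 was left out (highest adjusted p = 0.0609). Ccr2, which draws monocytes into tissue, measured 5.24, 7.07 and 6.82 CPM in NT and 2.99, 2.35 and 2.55 CPM in IR_4d (-1.28 ± 0.24), and did not pass when NT replicate 3 or IR_4d replicate 2 or 3 was left out (highest adjusted p = 0.0703). Itgax, the integrin CD11c of dendritic cells and some macrophages, measured 4.64, 5.09 and 5.57 CPM in NT and 3.64, 2.57 and 2.27 CPM in IR_4d (-0.85 ± 0.18), and did not pass when NT replicate 2 or 3 or IR_4d replicate 2 or 3 was left out (highest adjusted p = 0.131). The lysozyme gene Lyz1 changed by -1.83 ± 0.36 and did not pass when IR_4d replicate 2 or 3 was left out (highest adjusted p = 0.0793). The summed level of the list overlapped between groups, at 360.1 to 422 CPM in NT and 334 to 371 CPM in IR_4d. The 4 falls became 1 without NT replicate 3, IR_4d replicate 2 or IR_4d replicate 3. Without the sublingual-rich libraries edgeR called 0, with 12 at an unadjusted p under 0.05. Retnla, a secreted protein of alternatively activated macrophages, is on no list and fell from 2.84, 2.14 and 3.59 CPM in NT to 0.384, 0.272 and 0.664 CPM in IR_4d (-2.72 ± 0.33, adjusted p = 9.33e-05), with every single library left out as well.

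T and NK cell markers had low levels. Their summed level was 25.5 to 27.7 CPM in NT and 12.9 to 14.2 CPM in IR_4d, ranges that do not overlap. Of 27 tested, 2 fell and none rose, with a median log2 change of -1.09 and 25 negative values. Over all genes 0.561% were lower, and 8109 of 16042 had a negative log2 change. Il2rb, a subunit of the receptors for interleukins 2 and 15, stood at 4.78, 7.17 and 5.18 CPM in NT and 2.63, 2.93 and 1.82 CPM in IR_4d (-1.21 ± 0.23, adjusted p = 0.0103), and did not pass when NT replicate 2 or IR_4d replicate 3 was left out (highest adjusted p = 0.0693). Lck, the kinase of the T cell receptor, measured 0.917, 0.943 and 0.813 CPM in NT and 0.237, 0.121 and 0.245 CPM in IR_4d (-2.14 ± 0.45), and did not pass when NT replicate 2 or 3 or IR_4d replicate 1, 2 or 3 was left out (highest adjusted p = 0.115). No member was called without NT replicate 2 or IR_4d replicate 3, 1 without NT replicate 3 or IR_4d replicate 1 or 2, and 0 with the covariates (12 at an unadjusted p under 0.05), while DESeq2 called 5. In the IR_iEV_4d libraries the summed level was 14.8 to 16.7 CPM and in IR_30d 28.5 to 32.9 CPM.

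**Figure D4:**
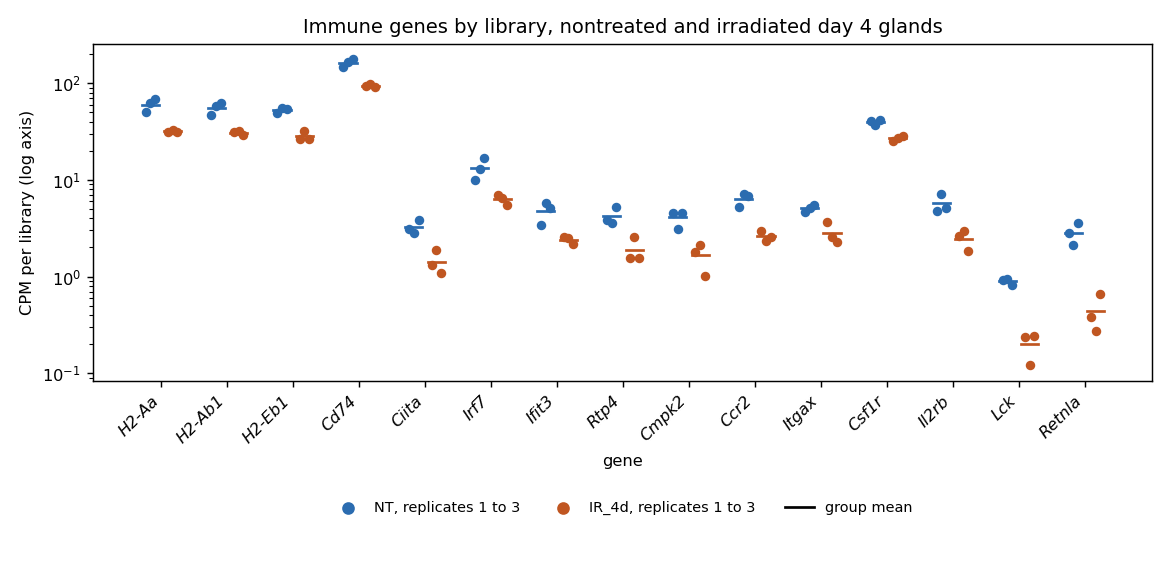
CPM on a log axis of 15 immune genes in each NT (blue) and IR_4d (orange) library, with the group mean as a line. The 3 IR_4d points lie under the 3 NT points for each gene shown, and the step is small for Csf1r and large for Lck and Retnla.

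Of the other immune lists, 7.69% of B and plasma cell genes and 6.45% of chemokines and cytokines were called, against 1.40% of all genes tested. Of 13 B and plasma cell genes 1 rose, the plasma cell and epithelial proteoglycan gene Sdc1 (0.64 ± 0.10, adjusted p = 0.0613 with the covariates and 0.157 without the sublingual-rich libraries). EdgeR called none of the 13 lower, but the list's median log2 change was -0.72, with 9 negative and 4 positive values. Its summed level was 568 to 824 CPM in NT and 446 to 553 CPM in IR_4d, ranges that do not overlap. The ranges of its mean log2 CPM did overlap. With the covariates the list's median was 0.08, with 8 positive and 5 negative values. Of 31 chemokines and cytokines 1 rose and 1 fell. Lif, a cytokine of the interleukin 6 family, went from 0.344, 0.220 and 0.240 CPM in NT to 1.09, 1.42 and 2.06 CPM in IR_4d (2.49 ± 0.45), with adjusted p = 0.131 with the covariates. Ccl22, a chemokine of dendritic cells, stood at 0.859, 0.252 and 1.07 CPM in NT and 0, 0.0604 and 0.0350 CPM in IR_4d, near the counting floor in the irradiated glands, and did not pass when NT replicate 3 or IR_4d replicate 1, 2 or 3 was left out (highest adjusted p = 0.0926). No member of the neutrophil and mast cell (6 tested), endothelial (27), glial and neuronal (14) or lymph node (4) lists passed edgeR's test. At an unadjusted p under 0.05 there were 1, 3, 1 and 1 members in turn, and DESeq2 called 1 endothelial gene, as did edgeR without NT replicate 1.

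Most lipid synthesis genes had a positive log2 change. Of 35 tested, 2 rose and none fell, with a median log2 change of 0.48 and 32 positive values. Over all genes 0.835% were higher, and 7932 of 16042 had a positive log2 change. Scd2, a desaturase that makes monounsaturated fatty acids, stood at 447, 266 and 210.2 CPM in NT and 927, 895 and 1107 CPM in IR_4d (log2 change 1.67 ± 0.21, adjusted p = 0.000461). Srebf1, the transcription factor that drives fatty acid synthesis, measured 99.7, 80.6 and 64.5 CPM in NT and 150.2, 171 and 147 CPM in IR_4d (0.94 ± 0.14). Both passed in every leave-one-out fit, and in both the 3 irradiated glands were above the 3 nontreated ones. In the separate fit of the 6 libraries Scd2 did not pass (adjusted p = 0.109). The list's median ranged from 0.24 to 1.07 over the alternatives. The count became 7 without NT replicate 1 and 8 without the sublingual-rich libraries. The latter fit rests on IR_4d replicate 3, the library highest in fat markers, and there 4 of 18 fat genes were called higher too. With the sublingual and fat levels as covariates both genes passed (adjusted p = 0.0163 and 0.0234), as they did without IR_4d replicate 3.

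Of the other stress pathways, 4.65% of the antioxidant list and 9.38% of the amino acid and ATF4 list were called. Over all genes tested 1.40% were. Nfe2l2, the regulator of antioxidant genes, stood at 50.2, 60.2 and 58.5 CPM in NT and 86.8, 95.2 and 88.8 CPM in IR_4d (log2 change 0.68 ± 0.08, adjusted p = 3.70e-05), and passed in every alternative fit. Of the 43 antioxidant genes no other rose and the median was -0.04. The 1 that fell was the glutathione transferase gene Gsta4 (-0.80 ± 0.17), which did not pass when NT replicate 1 or 3 or IR_4d replicate 1 or 3 was left out (highest adjusted p = 0.138). In the list of amino acid and ATF4 targets 3 of 32 fell and none rose (median -0.19). Eif4ebp1, a brake on translation initiation, measured 66.9, 58.7 and 59.6 CPM in NT and 37.4, 41.7 and 39.3 CPM in IR_4d (-0.64 ± 0.10) and passed in every alternative fit. Trib3, a pseudokinase, changed by -1.19 ± 0.29 and did not pass when NT replicate 2 or 3 or IR_4d replicate 1, 2 or 3 was left out (highest adjusted p = 0.218). Bcat1, a transaminase of branched-chain amino acids, changed by -1.78 ± 0.41 and did not pass when NT replicate 1 or 2 or IR_4d replicate 1 or 3 was left out (highest adjusted p = 0.182). The list's count was 1 without NT replicate 2, IR_4d replicate 1 or IR_4d replicate 3, or with the covariates.

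Genes for protein folding in the endoplasmic reticulum and for respiration had small log2 changes, nearly all positive. Of 28 unfolded protein response genes 26 were positive and 17 had all IR_4d values above NT (median 0.24; 9.06% of all genes lay so), but 1 passed, the secreted factor gene Manf (105, 98.1 and 90.8 CPM in NT and 127, 129 and 127 CPM in IR_4d, 0.38 ± 0.09), and it did not pass when NT replicate 2 or 3 or IR_4d replicate 1, 2 or 3 was left out (highest adjusted p = 0.182). Without NT replicate 1 the list had 5 rises. All 45 nuclear genes of oxidative phosphorylation had a positive log2 change, with a median of 0.17. Over all 16042 genes tested, 7932 had a positive log2 change and 0.835% were called higher. EdgeR called none of them, DESeq2 called 1, as did edgeR without NT replicate 1 and in the separate fit of the 6 libraries, and 10 had an unadjusted p under 0.05. The lowest p in that list was for Atp5g1, a subunit of ATP synthase, at 73.2, 63.7 and 59.8 CPM in NT and 75.01, 89.6 and 83.9 CPM in IR_4d (0.34 ± 0.09, adjusted p = 0.0871). The mitochondrial genome's 13 genes had a median of 0.09, no call and none at an unadjusted p under 0.05. Of 75 ribosomal protein genes 1 rose, Rps19 (0.47 ± 0.10), which did not pass when NT replicate 2 or 3 or IR_4d replicate 2 or 3 was left out (highest adjusted p = 0.114).

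Few genes of saliva production and of the ducts passed at day 4. In the acinar list 2.78% were called, against 1.40% of all genes tested. Of 36 acinar identity and secretion genes 1 rose and none fell, with a median of 0.01. Vipr1, a receptor for vasoactive intestinal peptide, stood at 11.6, 12.3 and 9.30 CPM in NT and 22.9, 18.5 and 13.7 CPM in IR_4d (0.74 ± 0.16), and did not pass when NT replicate 3 or IR_4d replicate 1 or 2 was left out (highest adjusted p = 0.152). Aqp5, the water channel of the acinar membrane, measured 271, 288 and 286 CPM in NT and 337, 358 and 305 CPM in IR_4d. Its irradiated values were all above the nontreated ones, but the difference did not pass (log2 change 0.24 ± 0.10, adjusted p = 0.327). No member passed among 26 granular duct products (median -0.05) or 39 duct, ion transport and progenitor genes (median -0.11), with 2 and 11 at an unadjusted p under 0.05. The largest log2 change of all genes tested, 14.2, was in the granular duct list, and it did not pass. That list had 11 positive and 15 negative changes. Its mean log2 CPM was 9.25 to 9.60 in NT and 9.74 to 10.4 in IR_4d, ranges that do not overlap, while its summed levels did. DESeq2 called 2 granular duct products and 1 duct gene higher. Without NT replicate 1, 1 gene of the duct list was higher and 4 were lower, and 3 acinar genes were higher. Without the sublingual-rich libraries 1 gene of the duct list was higher, 1 was lower, and 1 granular duct product was higher. The duct list's lowest p values belonged to Foxi1, the factor of ionocytes (0.46 ± 0.13, adjusted p = 0.115), and to Kit, a progenitor receptor (0.39 ± 0.12, adjusted p = 0.139).

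In the fibroblast and matrix list 1 of 41 rose and 2 fell, with a median of -0.24 and 32 negative values. Over all genes 0.835% were higher and 0.561% lower, and 8109 of 16042 had a negative log2 change. Mmp2, a gelatinase that digests basement membrane collagen, stood at 25.8, 21.5 and 20.3 CPM in NT and 45.9, 48.9 and 52.1 CPM in IR_4d (log2 change 1.12 ± 0.13, adjusted p = 3.66e-05), and passed in every alternative fit. Pdgfra, the growth factor receptor that marks fibroblasts, measured 57.2, 64.6 and 60.6 CPM in NT and 42.9, 39.4 and 46.5 CPM in IR_4d (-0.50 ± 0.12), and did not pass when NT replicate 2 or 3 or IR_4d replicate 1, 2 or 3 was left out (highest adjusted p = 0.205). Col15a1, a basement membrane collagen, changed by -0.56 ± 0.13 and did not pass when NT replicate 1 or 2 or IR_4d replicate 1, 2 or 3 was left out (highest adjusted p = 0.185). In the hormone response list of 15, Hsd11b1, which regenerates glucocorticoid, rose by 0.75 ± 0.15, and it did not pass when NT replicate 2 or 3 or IR_4d replicate 3 was left out (highest adjusted p = 0.0805). In the immediate early list of 25, Ier5 rose from 13.2, 8.55 and 11.4 CPM in NT to 18.3, 18.1 and 19.5 CPM in IR_4d (0.75 ± 0.14), and it did not pass when NT replicate 2 or IR_4d replicate 3 was left out (highest adjusted p = 0.0542). The clock list had no call among 19 and none at an unadjusted p under 0.05.

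**Figure D5:**
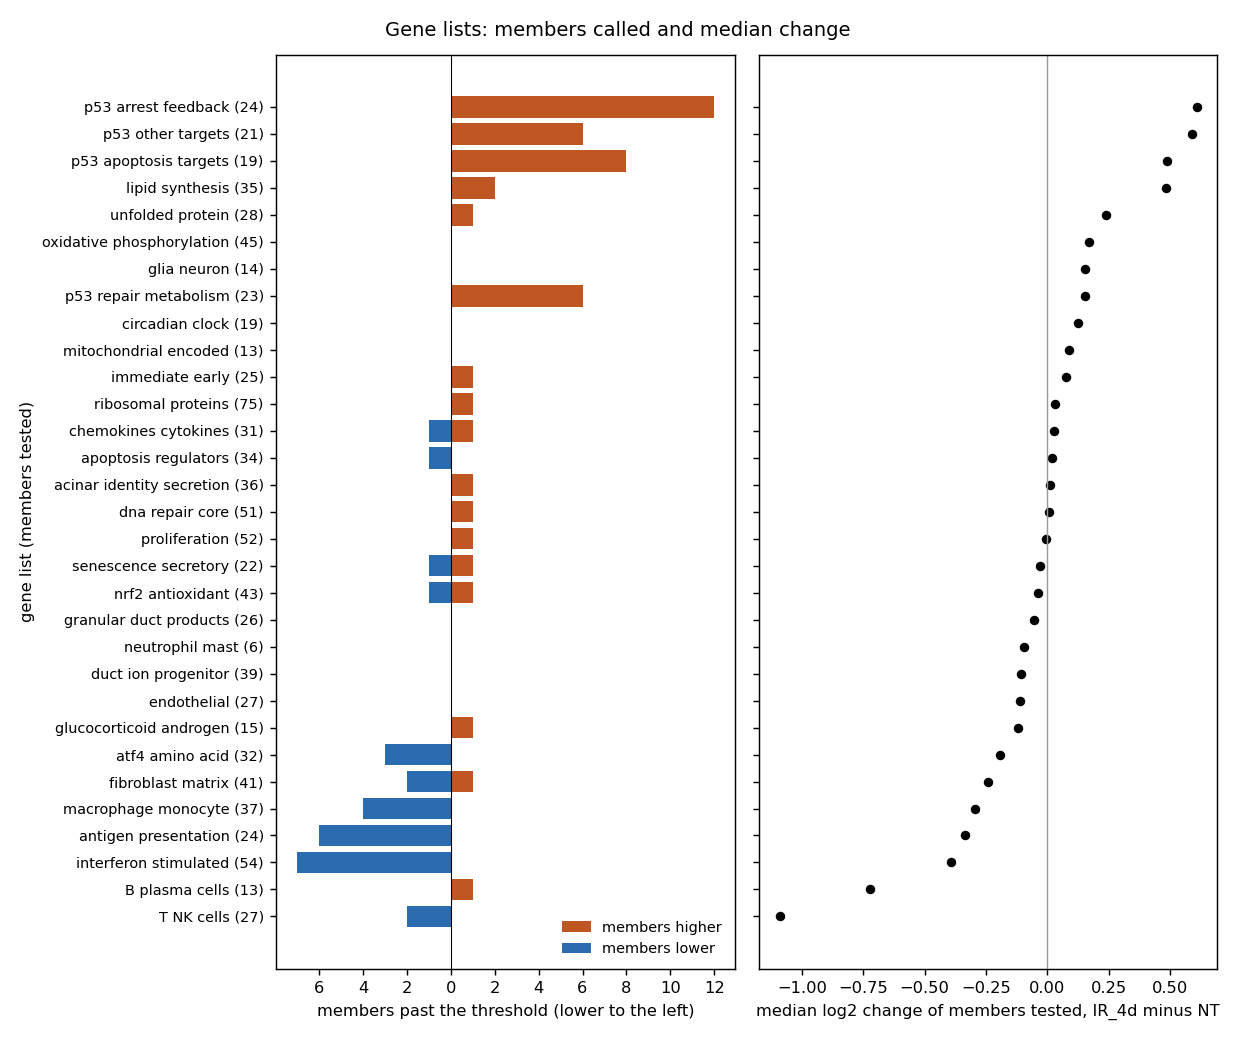
For 31 gene lists, the number of members past the threshold (left; higher in orange, lower in blue, to the left of 0) and the median log2 change of the members tested (right, black points; IR_4d minus NT). The p53 lists hold the most rises (32), and the interferon and antigen presentation lists the most falls (7 and 6).

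Further falls were found outside the lists. Klhl33, a Kelch-like protein gene, stood at 9.51, 6.73 and 5.82 CPM in NT and 2.51, 1.57 and 0.944 CPM in IR_4d (log2 change -2.12 ± 0.28, adjusted p = 0.000276). Tgm5, a transglutaminase, measured 16.7, 25.1 and 24.8 CPM in NT and 9.82, 7.49 and 10.1 CPM in IR_4d (-1.28 ± 0.16), and the autophagy gene Gabarapl1 137, 123 and 119.5 CPM in NT and 75.8, 81.2 and 83.0 CPM in IR_4d (-0.66 ± 0.09). The mitochondrial carrier gene Slc25a34 measured 33.7, 21.9 and 22.2 CPM in NT and 12.5, 12.7 and 13.4 CPM in IR_4d (-1.01 ± 0.16). None of these had overlapping groups, and all 4 passed with each single library left out. Without the sublingual-rich libraries the adjusted p was 0.0553 for Gabarapl1 and 0.0687 for Slc25a34. Stk10, a lymphocyte kinase, changed by -1.04 ± 0.20 and did not pass when NT replicate 2 or IR_4d replicate 1 or 3 was left out (highest adjusted p = 0.0772).

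The other irradiated groups place these levels beside a later day and beside iEV injection. Comparing these groups with NT or IR_4d would reuse libraries of the comparison above, so the values are given side by side. Cdkn1a stood at 74.3, 86.0 and 70.9 CPM in IR_iEV_4d and 24.9, 45.8 and 31.0 CPM in IR_30d, and Ephx1 at 306, 296 and 272 CPM in IR_iEV_4d and 179, 188 and 192 CPM in IR_30d. Gdf15 measured 38.4, 43.0 and 42.2 CPM in IR_iEV_4d and 35.1, 51.97 and 38.2 CPM in IR_30d. These 3 p53 targets were above every NT library in both groups. Cd74 measured 98.4, 124 and 101 CPM in IR_iEV_4d and 225, 304 and 264 CPM in IR_30d, and Irf7 16.3, 17.9 and 16.9 CPM in IR_iEV_4d and 27.4, 29.2 and 34.9 CPM in IR_30d. Both immune genes were above every NT library at day 30. Scd2 measured 745, 763 and 720.2 CPM in IR_iEV_4d and 287, 359 and 261 CPM in IR_30d. Between day 30 and day 4 without iEVs 1092 genes passed, 6.81% of those tested.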

How the data were processed

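Submandibular gland RNA was extracted with TRIzol and made into stranded libraries (NEXTFLEX Rapid Directional), per the labels' protocols. The authors deposited raw read counts per gene symbol in 1 table of 21013 genes. TopHat, HTSeq, DESeq2 and the build GRCm39 are named in the submitters' processing notes; versions, annotation, strand setting and the treatment of multi-mapping reads are not given in the sources used here, so paralogs such as Ifit or Klk1b genes may share reads.

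Counts of all 15 libraries were fitted in 1 model with edgeR 4.0.16 in R 4.3.3 (TMM, filterByExpr with minimum count 10 and minimum total 15, robust quasi-likelihood F test). It kept 16042 genes, and Benjamini-Hochberg adjustment ran over all of them, at 0.05. Errors after ± are standard errors, the absolute log2 change over the square root of F, and changes are IR_4d minus NT. Totals of 29082798 to 52201098 counts set the counting precision. The covariates were each library's mean log2 CPM of the sublingual and fat lists. Alternatives used DESeq2 1.42.0, limma 3.58.1, other scalings and filters, covariates, a block and libraries left out, with the effects given in the closing section. The fitting was tested on simulated data.

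Named genes are from 4 groups: the 15 largest changes in each direction (mean of at least 2 CPM, no overlap), the 10 lowest p-values in each direction, up to 6 called members of each of 36 lists (or 2 uncalled), and Trp53, Mdm2, Cdkn1a, Aqp5 and Gdf15. Others are said to be picked afterwards, or complete a list's account. Members and lists were chosen with earlier results of these data known. The motif search used a script of its own on the RefSeq promoter table. Promoters matched 12155 of the tested genes by symbol and 66 of the 90 lower genes, under 80%, so a share over either set is void.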

Additional observations from a re-analysis of the deposited data

Results flagged for a closer look

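The genes given here were picked with their day 4 values known, and the difference between day 30 and day 4 (IR_30d minus IR_4d) uses the same IR_4d libraries. The choice therefore favoured the direction of each difference, so the values are a description with no test. They are listed because each gene passed edgeR's threshold in the fit of that difference over all genes, as did 6.81% of genes tested. Among the p53 targets, the log2 difference was -0.91 ± 0.09 for Aen and -0.53 ± 0.10 for Ephx1. Cdkn1a (-0.73 ± 0.21) and Gdf15 (0.32 ± 0.32), picked with them, did not pass.

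The class II genes H2-Aa and Cd74 had log2 differences of 1.57 ± 0.12 and 1.48 ± 0.11. For the interferon-stimulated genes Irf7, Ifit3 and Rtp4 the values were 2.27 ± 0.20, 2.49 ± 0.21 and 2.08 ± 0.21. They were 2.31 ± 0.24 for the monocyte receptor gene Ccr2 and 3.98 ± 0.33 for Retnla.

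The desaturase gene Scd2 had a log2 difference of -1.69 ± 0.21 and its regulator Srebf1 one of -1.31 ± 0.14. For the water channel gene Aqp5, which was not called at day 4, the difference was -0.69 ± 0.10. For Klhl33 it was 1.59 ± 0.28.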

How the results depend on the processing

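None of the 224 genes called changed direction in any alternative that tested it (153 of them at 5 CPM, 220 in the fit of the 6 libraries). The groups overlapped in none of the 224, so a reversal was hardly possible and this says little about robustness. The count of 224 (134 higher, 90 lower) was 448 with DESeq2 (251 and 197), 85 with the sublingual and fat covariates (62 and 23), and 129 without the sublingual-rich libraries (97 and 32). The 106 genes that also changed 2-fold are 69 higher and 37 lower. Leaving out 1 library gave 119 to 386 genes, 86 to 214 higher and 27 to 172 lower. For NT replicates 1, 2 and 3 the count was 386, 142 and 119, and for IR_4d replicates 1, 2 and 3 it was 147, 129 and 122. Lower genes numbered 56 with limma-voom and 54 at a mean of at least 5 CPM. DESeq2 size factors (229), upper quartile scaling (234), no filter (221) and a fit of the 6 libraries alone (204) stayed within 1.5 times. The share of calls that were higher, 59.8%, was 72.9% with covariates and 75.2% without the sublingual-rich libraries. Falls among interferon genes numbered 13 with DESeq2, 4 with limma-voom and at 5 CPM, and 3 in the fit of the 6 libraries. T and NK genes had 5 with DESeq2, 3 with the block and 1 with limma-voom and in the fit of the 6 libraries. Macrophage genes had 2 with limma-voom and with covariates, and ATF4 targets 6 with DESeq2 and 1 with limma-voom and at 5 CPM. The limit of 5 for those libraries was chosen after seeing the data, since the planned limit of 2 left no IR_4d library and could not be fitted. With 1 IR_4d library left, its spread is assumed to be that of the other groups.

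With the replicate number as a block 207 genes passed (134 higher, 73 lower). Same-numbered libraries had correlations of 0.117, 0.050 and 0.188 between their deviations. Each NT library correlated best with the IR_4d library of its own number. Whether same-numbered libraries share more than a number was not tested. A planned count of day 4 calls that differ between the days is not given, because both comparisons share the IR_4d libraries. Counts near 0, as for Ccl22 or Trp53cor1, limit the precision of their changes.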

Other observations

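The genes here are on none of the lists and were picked after their values were seen. Rev1, a scaffold of DNA synthesis past lesions, stood at 8.48, 11.6 and 10.2 CPM in NT and 27.4, 27.0 and 25.6 CPM in IR_4d (log2 change 1.40 ± 0.14, adjusted p = 1.12e-05). Sat1, the enzyme that starts polyamine breakdown, measured 26.5, 27.9 and 25.7 CPM in NT and 57.4, 54.7 and 55.6 CPM in IR_4d (1.07 ± 0.08), and Sulf2, which trims heparan sulfate, 36.1, 36.6 and 39.5 CPM in NT and 68.2, 71.5 and 65.9 CPM in IR_4d (0.87 ± 0.09). The irradiated glands were above the nontreated ones in all 3 genes. Lmna, the gene of lamins A and C, had a small rise, from 53.7, 61.7 and 56.6 CPM in NT to 72.5, 76.0 and 79.7 CPM in IR_4d (0.41 ± 0.08), and did not pass when NT replicate 3 or IR_4d replicate 2 or 3 was left out (highest adjusted p = 0.0867).

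Itgae, the integrin that binds E-cadherin, stood at 0.659, 1.10 and 0.924 CPM in NT and 0.118, 0.151 and 0.175 CPM in IR_4d (-2.58 ± 0.52), and Ctsw, a protease of cytotoxic lymphocytes, at 1.00, 0.786 and 0.998 CPM in NT and 0.237, 0.151 and 0.105 CPM in IR_4d (-2.46 ± 0.44). Levels were low, and all IR_4d values lay under all NT values. Itgae did not pass when NT replicate 2 or 3 or IR_4d replicate 1, 2 or 3 was left out (highest adjusted p = 0.0853), while Ctsw passed with each single library left out but not without the sublingual-rich libraries (adjusted p = 0.103). Clec7a, the beta-glucan receptor of myeloid cells, measured 2.41, 1.95 and 3.42 CPM in NT and 0.710, 1.12 and 0.629 CPM in IR_4d (-1.66 ± 0.31), and did not pass when NT replicate 3 or IR_4d replicate 3 was left out (highest adjusted p = 0.0563). Cpt1a, the gate of fatty acid entry into mitochondria, went from 123, 146 and 152 CPM in NT to 94.6, 88.2 and 88.3 CPM in IR_4d (-0.64 ± 0.14), and did not pass when NT replicate 2 or 3 or IR_4d replicate 1, 2 or 3 was left out (highest adjusted p = 0.126).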
